A study of Mus musculus with 4 samples.

Results

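The ADAMTS genes described here encode secreted metalloproteases with thrombospondin motifs that cut proteoglycans and procollagens of the joint. The members were chosen by gene symbol: every probe set whose annotation names exactly 1 of Adamts1, Adamts2, Adamts4, Adamts5 and Adamts9. This rule matched 5 probe sets of 22690 on the array, for 3 of the 5 genes. They are 1 probe set of Adamts1 (1450716_at), 2 of Adamts4 (1452595_at and 1455965_at) and 2 of Adamts5 (1422561_at and 1450658_at). Adamts2 and Adamts9 are not analysed here. The rule itself uses gene symbols and no signal, but the genes were picked with earlier results of these data known.

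The 4 samples were dishes of mouse synovial fibroblasts, the cells that line the joint, and each dish was measured on 1 Affymetrix GeneChip. The cells came from knees of naïve male DBA/1J mice aged 8 to 12 weeks, had been passaged 3 to 4 times and stood in medium with 1% serum. One dish received IL-1β (5 ng/ml), indomethacin (1 µM) and iloprost (1 µM), one IL-1β and indomethacin, one IL-1β alone, and one vehicle, each for 6 h. Indomethacin blocks the cyclooxygenases that make prostaglandins and prostacyclin, and iloprost is a stable prostacyclin analogue. Per the series title, the question was how prostacyclin signalling acts on fibroblasts activated by IL-1β. How many mice gave the cells is not given in the sources used here. Each treatment had 1 array, so there was no spread between dishes, no test and no p-value, and every difference describes these dishes only. Below, the dishes called iloprost and indomethacin also received IL-1β, and the iloprost dish received indomethacin too.

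Adamts4 and Adamts5 are known as the aggrecanases, the proteases that cut aggrecan, the large proteoglycan of cartilage. In mice, loss of Adamts5 protects cartilage in models of arthritis. Adamts1 also cuts aggrecan and versican, and it binds the angiogenic factor VEGF. Adamts9 cuts versican and aggrecan, and Adamts2 removes the amino-terminal propeptide of fibrillar procollagens. The proteases are made as precursors that furin-type convertases cut. TIMP3 is their main tissue inhibitor, and the receptor LRP1 clears them from the matrix.

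Of the 5 members, Adamts1, Adamts2 and Adamts9 matched the RefSeq promoter table, which holds 250 bases before and 50 bases after each gene's start. The promoter of Adamts1 is shown because Adamts1 was the only one of these genes with a probe set. The window lies at chr16:85803064-85803363 on the minus strand of GRCm38.p6, is printed 5′ to 3′ as RefSeq gives it, and has matches to the searched motifs in capitals.
Adamts1 promoter: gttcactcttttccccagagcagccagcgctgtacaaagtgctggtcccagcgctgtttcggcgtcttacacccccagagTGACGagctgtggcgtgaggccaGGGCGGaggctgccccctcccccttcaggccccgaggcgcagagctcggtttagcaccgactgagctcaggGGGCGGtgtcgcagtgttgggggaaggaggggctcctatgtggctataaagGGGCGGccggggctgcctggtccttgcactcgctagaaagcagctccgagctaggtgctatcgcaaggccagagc

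Both strands were searched. The window held 1 match to the short CRE motif TGACG, the core of sites bound by CREB, 170 bases before the start. Of 32851 windows of this length, 20.8% held this motif. It also held 3 matches to the GC box GGGCGG, a motif that 35.7% of windows held, at 147, 76 and 25 bases before the start. None of these matches overlapped another. The window had no match to the full CRE TGACGTCA, which contains the short motif and was in 1.79% of windows. It had none to the AP-1 motif TGANTCA (7.81% of windows), the NBRE of NR4A receptors AAAGGTCA (1.51%), the C/EBP motif TTGCNNAA (10.8%) or the NF-kB motif (4.51%). A match describes letters and not binding, and a missing match says only that these letters are not in this window.

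Signals below 37.6, the 50th percentile of all values, were treated as a floor, and 6222 genes lay above it on every array. Brightness differed between the arrays, so log2 ratios are given relative to the median of those 6222 genes. That median was above vehicle by a log2 of 0.087 with iloprost, 0.078 with indomethacin and 0.23 with IL-1β. Many genes have several probe sets, and the ratios of the brightest pair of each gene served as a yardstick. For each comparison they gave an SD of 0.16 to 0.18 for 1 probe set, and 95% of pairs differed by less than 0.54 to 0.59. This covers probe noise and not the spread between dishes. The label names fibroblasts, and all 12 fibroblast markers were above the floor in each dish, but so were all 14 macrophage markers. Summed as deposited, macrophage marker signals were 29165.9 with iloprost, 30936 with indomethacin, 36324.9 with IL-1β and 31716.3 with vehicle. Summed fibroblast signals, also as deposited, ran from 25984.9 to 28296.2. Such sums keep the brightness of each array, and the IL-1β array was the brightest. Once brightness was allowed for, the 14 macrophage markers had a median log2 ratio of -0.12 between the IL-1β and vehicle dishes. Of these, 4 were above 0 and 10 below. Of 10 chondrocyte markers, 8 were at the floor throughout, Acan and Col2a1 among them, as were 6 of 8 endothelial markers and 4 of 7 markers of smooth muscle and pericytes. Above it on all 4 arrays were 2 chondrocyte markers, 1 endothelial marker and 2 of smooth muscle and pericytes. The last were Acta2, at 2242.4 to 2371.5 on its brighter probe set, and Tagln, at 1051.4 to 1144.2. The chondrocyte marker Comp had signals of 372.2 to 387. Which cells carried the ADAMTS transcripts was not tested, and in bulk RNA fewer cells of a type and less RNA per cell cannot be told apart.

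The aggrecanase Adamts4 had signals of 755.9 with IL-1β, indomethacin and iloprost, 911.9 with IL-1β and indomethacin, 1033.8 with IL-1β alone and 150.5 with vehicle on its brighter probe set. All 3 dishes with IL-1β were high and close to each other, and the vehicle dish was low. Its second probe set, 1455965_at, had 124.2, 117.5 and 144 in the same 3 IL-1β dishes, against 13.3 with vehicle. The vehicle value lies under the floor, so it has no order among dim signals.

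The aggrecanase Adamts5 had signals of 434.6 with IL-1β, indomethacin and iloprost, 332.1 with IL-1β and indomethacin, 693.4 with IL-1β alone and 331.1 with vehicle on probe set 1422561_at. The IL-1β dish stood apart, and the indomethacin dish was at the vehicle level. On probe set 1450658_at the signals were 203.8, 175.6 and 296.8 in the 3 IL-1β dishes in that order, and 127.6 with vehicle. As deposited, this gives the same order of dishes, with the indomethacin dish somewhat above vehicle. The platform annotation cites the same sequence entry for both, so they are not separate evidence for the gene. It cites different entries for the Adamts4 pair.

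Adamts1 had signals of 297.8 with IL-1β, indomethacin and iloprost, 193.7 with IL-1β and indomethacin, 502.1 with IL-1β alone and 111.9 with vehicle. As deposited, the order of the dishes was that of Adamts5, over a wider range. Relative to the median gene, the log2 ratio of the indomethacin dish to vehicle was -0.074 for Adamts5 on 1422561_at and 0.71 for Adamts1. Levels of different probe sets cannot be set against each other, since probes differ in brightness.

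**Figure D1:**
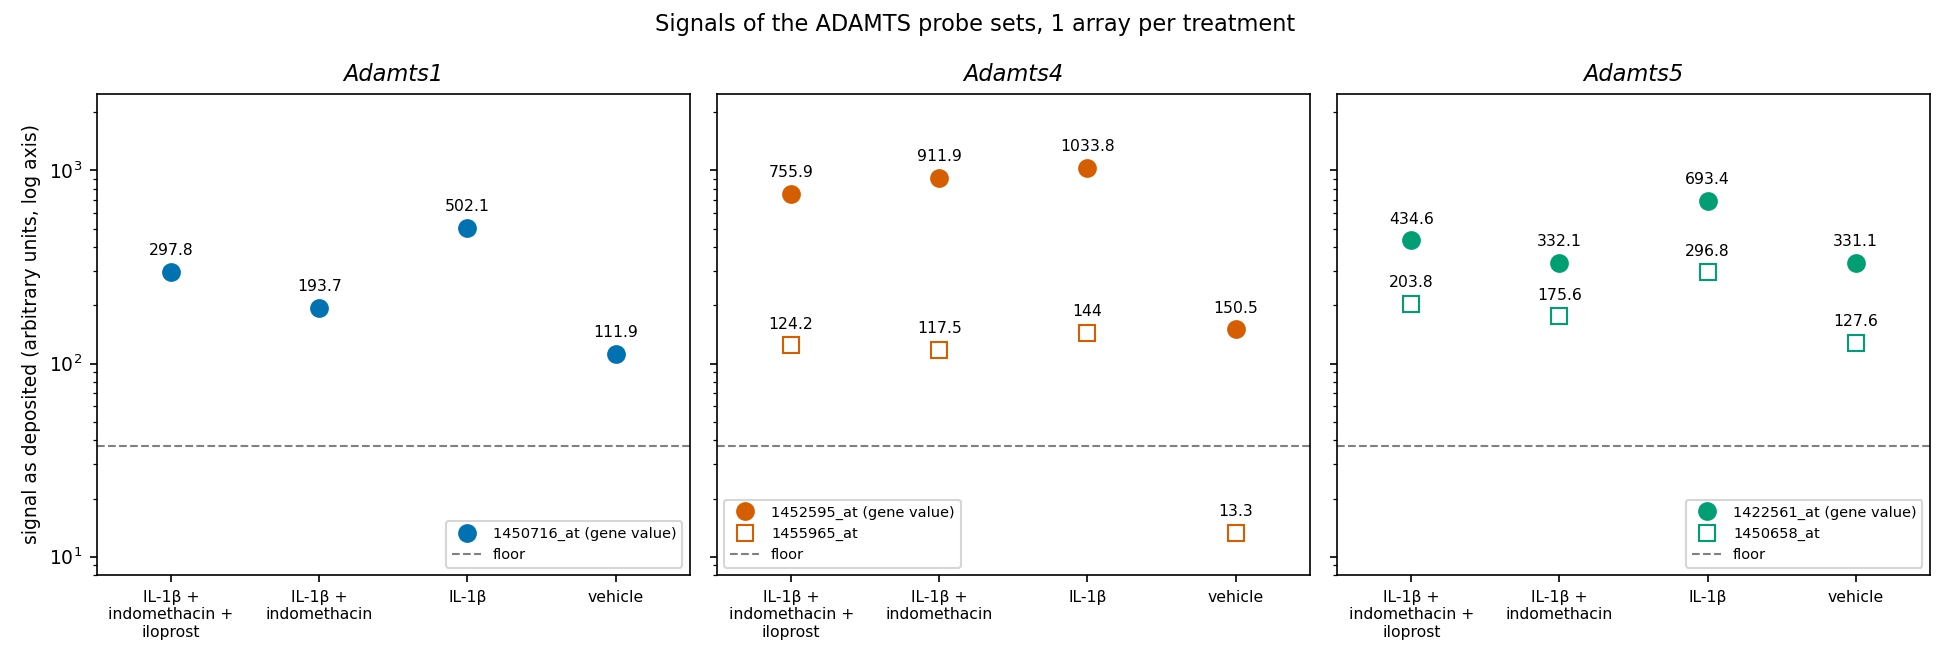
Deposited signal (arbitrary units, log axis) of each Adamts1, Adamts4 and Adamts5 probe set in the 4 dishes, 1 point per array, with the floor of 37.6 dashed. All 3 genes are highest with IL-1β alone. Over the 3 IL-1β dishes, Adamts4 runs from 755.9 to 1033.8 on its brighter probe set, against 150.5 with vehicle. Adamts1 runs from 193.7 to 502.1, against 111.9, and Adamts5 from 332.1 to 693.4 on its brighter probe set, against 331.1.

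With IL-1β against vehicle, all 3 genes were higher. Adamts4 had a log2 ratio of 2.55, a 5.87-fold difference that 18 of 6964 genes exceeded. Its second probe set gave a ratio of at least 1.71. Adamts1 had a ratio of 1.94 (3.84-fold), which 34 genes exceeded. Adamts5 had a ratio of 0.84 (1.79-fold) on its brighter probe set and 0.99 on the other. Adamts4 and Adamts1 thus passed 2-fold, where 1.72% of all genes were at least 2-fold higher and 0.56% at least 2-fold lower. These were 120 and 39 genes, and 195 and 11 on the scale as deposited, where Adamts5 passed 2-fold too, at 1.07. The median of the 3 genes was 1.94, against -0.017 for all genes. The Adamts4 ratio exceeded those of the Adamts5 probe sets by 1.71 and 1.56, and the Adamts1 ratio exceeded them by 1.10 and 0.95, more than the 0.59 that bounded 95% of pairs of probe sets of 1 gene. Adamts4 exceeded Adamts1 by 0.61 on its brighter probe set, close to that bound. On the other, the Adamts4 bound of at least 1.71 lies under the Adamts1 ratio, so it gives no order of these genes. Macrophage markers had a median of -0.12 with IL-1β, and 0 of 14 passed 2-fold.

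With indomethacin added to IL-1β, Adamts1 and Adamts5 were lower than with IL-1β alone, and Adamts4 was near the median gene. Adamts1 had a log2 ratio of -1.23 against IL-1β alone, 2.34-fold lower, and 29 of 6932 genes were lower still. Adamts5 was at -0.91 (1.89-fold lower) on 1422561_at and -0.61 on 1450658_at. Adamts4 stood at -0.034 on its brighter probe set and -0.15 on the other. So 1 of the 3 genes was at least 2-fold lower, as were 0.664% of all genes, while 0.245% were at least 2-fold higher. These were 46 lower and 17 higher genes, and 60 and 9 on the scale as deposited, where Adamts5 passed 2-fold as well, at -1.06. The median of the 3 genes was -0.91, against 0.0016 for all genes. Adamts1 lay below the Adamts4 probe sets by 1.19 and 1.08, beyond the 0.54 that bounded 95% of same-gene pairs. Adamts5 on 1422561_at lay below them by 0.88 and 0.77, but on 1450658_at by 0.58 and 0.46, at the edge of that bound. Adamts1 lay below the Adamts5 probe sets by 0.31, within the bound, and 0.62, beyond it. These ratios and the IL-1β ratios share the IL-1β array.

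The dish with IL-1β and indomethacin can be set against vehicle without that array. Adamts4 was then at 2.52 (5.74-fold), exceeded by 12 of 6804 genes, and at a bound of at least 1.57 on its second probe set. Adamts1 was at 0.71 (1.64-fold), and Adamts5 at -0.074 and 0.38 on its 2 probe sets. Only Adamts4 of the 3 passed 2-fold, where 1.32% of all genes were at least 2-fold higher and 0.323% lower. The median of the 3 genes was 0.71, against -0.019 for all genes. The sign of the Adamts5 value rested on the probe set and the scale, since the median of its probe sets was 0.16 and the brighter one was at 0.0044 as deposited.

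Expressed as a share of the IL-1β increase over vehicle, on signals scaled to the median gene, Adamts4 kept 97.2% of its increase with indomethacin on its brighter probe set. Adamts1 kept 22.5%. Adamts5 kept -6.31% on 1422561_at, a level just under vehicle, and 30.7% on 1450658_at. As deposited, the shares were 86.2% for Adamts4, 21.0% for Adamts1, and 0.276% and 28.4% for Adamts5. On both scales Adamts4 kept the largest share of the 3 genes. These shares all use the IL-1β and vehicle arrays.

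With iloprost added to IL-1β and indomethacin, 0 of the 3 genes passed 2-fold against IL-1β and indomethacin. Adamts1 had a log2 ratio of 0.61 (1.53-fold higher), and 488 of 6986 genes were above it. Adamts5 was at 0.38 and 0.21. Adamts4 was at -0.28 on its brighter probe set and 0.072 on the other, so its direction differed between probe sets. Across all genes, 1.98% were at least 2-fold higher in this comparison and 3.19% at least 2-fold lower. The median of the 3 genes was 0.38, against 0.039 for all genes. The Adamts1 ratio exceeded that of the brighter Adamts4 probe set by 0.89, beyond the bound of 0.58 for same-gene pairs, and that of the other by 0.54, within it. Macrophage markers had a median of -0.18 in this comparison, and 1 of 14 was at least 2-fold lower. Their part in the ADAMTS values was not tested.

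The dish with IL-1β, indomethacin and iloprost was below IL-1β alone for all 3 genes. Adamts1 was at -0.61, Adamts5 at -0.54 and -0.40, and Adamts4 at -0.31 and -0.074. Of the 3 genes, 0 passed 2-fold, where 0.95% of all genes were at least 2-fold higher and 2.37% lower. These were 67 and 167 genes, and 44 and 220 on the scale as deposited. Against vehicle, the same dish had Adamts4 at 2.24 and Adamts1 at 1.33, with Adamts5 at 0.31 and 0.59. There 2 of the 3 genes were at least 2-fold higher, as were 2.72% of all genes, while 3.34% were lower. The medians of the 3 genes were -0.54 against IL-1β alone and 1.33 against vehicle, where those of all genes were 0.033 and 0.024. Macrophage markers had medians of -0.25 and -0.34 in these comparisons, with 1 and 3 of 14 at least 2-fold lower, and their part was not tested here either. With iloprost, the share of the IL-1β increase was 53.1% for Adamts1, on signals scaled to the median gene. It was 76.5% for Adamts4 on its brighter probe set, and 29.8% and 51.0% for the Adamts5 probe sets. The second Adamts4 probe set, with its vehicle signal under the floor, gave 94.4% with iloprost and 89.2% with indomethacin.

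**Figure D2:**
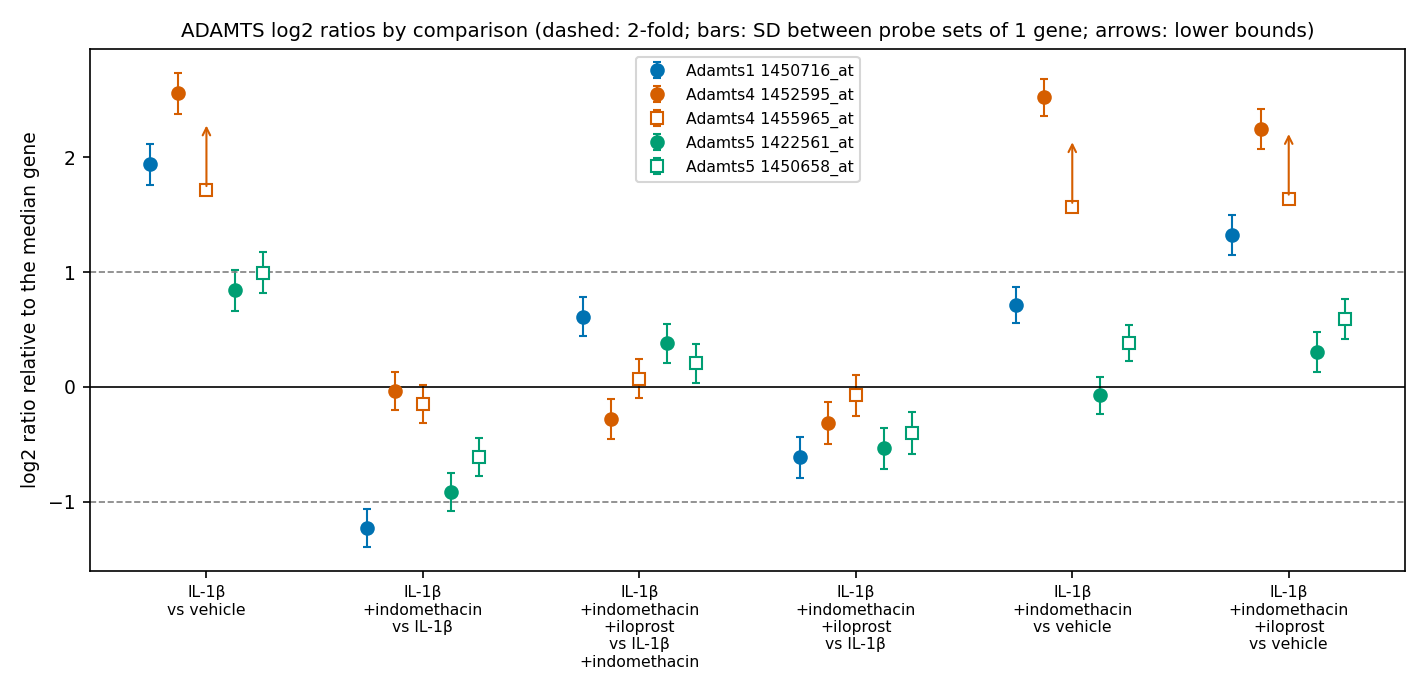
Log2 ratio relative to the median gene for each ADAMTS probe set in the 6 comparisons, with bars for the SD between probe sets of 1 gene and arrows for lower bounds. Adamts4 is at 2.24 to 2.55 in every comparison with vehicle, while Adamts1 and Adamts5 are lowest with indomethacin against IL-1β, at -1.23 and -0.91 on the gene's brighter probe set.

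Adamts1 and Adamts5 are neighbours on chromosome 16, with 0 protein-coding genes between them in the RefSeq order of GRCm38.p6. Of the genes that flank the pair, Cyyr1 was at the floor on all 4 arrays. App, the amyloid precursor gene beyond it, had signals of 2482.5 with iloprost, 2517.9 with indomethacin, 2597.2 with IL-1β and 2600.4 with vehicle. Ltn1, a ubiquitin ligase gene on the other side, had 81.2, 89.4 and 75.5 in the 3 IL-1β dishes and 82.4 with vehicle. The measured flanking genes thus varied little, and N6amt1, next to Adamts5, is not analysed here. Adamts4 lies on chromosome 1.

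Genes with a pattern most like that of a member were found by the Euclidean distance between log2 profiles over the 4 arrays, each relative to the median gene and to the gene's own mean. The search covered the 590 other genes that ranged over at least 1 log2 unit. The closest to Adamts4 was the neutrophil chemokine Cxcl5, at a distance of 0.091 log2 units. It was followed by the chemokine Cxcl1 at 0.22, the inducible cyclooxygenase Ptgs2 at 0.30, the lipocalin Lcn2 at 0.43 and the RNase Zc3h12a at 0.47. Cxcl5 had signals of 3252.4 with iloprost, 3613.0 with indomethacin, 4360.0 with IL-1β and 614.6 with vehicle. Like Adamts4, by which it was picked, it was high in every dish with IL-1β.

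The closest to Adamts1 was Vegfa, which encodes the angiogenic factor VEGF-A, at a distance of 0.33. Vegfa had signals of 494.8 with iloprost, 286.0 with indomethacin, 612.4 with IL-1β and 149.3 with vehicle. The next were Nabp1, a single-stranded DNA-binding protein gene, at 0.39, Id3, an inhibitor of basic helix-loop-helix factors, at 0.48, the fatty acid ligase Acsl4 at 0.48 and connexin 43 (Gja1) at 0.50. All 5 were lower with indomethacin than with IL-1β alone and higher again with iloprost. They were picked for likeness to Adamts1 on these same arrays, so the shared pattern is not a separate result. Adamts4 was at a distance of 1.30 from Adamts1, behind 166 other genes. Adamts5 ranged over 0.91 log2 units, under the limit of the search, so no genes are named for it. These distances rest on 4 arrays and are a description.

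**Figure D3:**
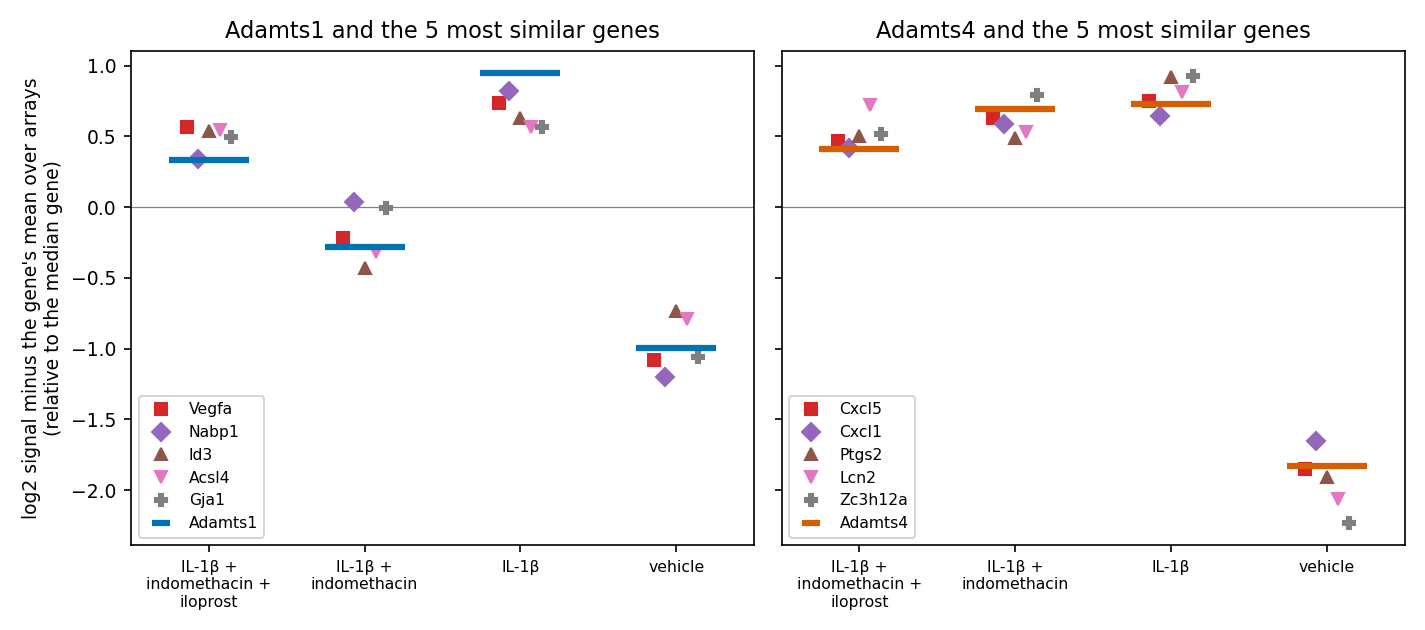
Log2 signal in each dish minus the gene's mean over the 4 arrays, relative to the median gene, for Adamts1 (left) and Adamts4 (right) with their 5 most similar genes, 1 point per array. The Adamts4 group is high in all 3 IL-1β dishes, while the Adamts1 group is lower in the indomethacin dish. The genes were picked for likeness on these arrays, so a shared pattern is not a separate result.

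In the accounts of related genes that follow, an IL-1β ratio is against vehicle, an indomethacin ratio against IL-1β alone and an iloprost ratio against IL-1β with indomethacin. Of 7 genes known to respond to IL-1, IL-1β gave 6 at least 2-fold higher, with a median of 2.60, and with indomethacin the median was -0.19. Of 6 genes known to respond to cAMP and prostanoids that had a ratio or a bound, IL-1β gave 4 at least 2-fold higher. Indomethacin gave 4 at least 2-fold lower, and iloprost 3 at least 2-fold higher. Across all genes, these shares were 1.72%, 0.664% and 1.98%. Fosl2 and Per1 gave only bounds in each comparison.

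Of 14 other ADAMTS protease genes, 4 had a probe set. Adamts7, Adamts8 and Adamts15 were at the floor on all 4 arrays. Adamts10 was above it on 1 array, that of IL-1β with indomethacin, at a signal of 43.1. The others on the list are not analysed here. Of the ADAMTS-like genes, whose products lack the protease domain, Adamtsl4 had signals of 64.1 with iloprost, 44.2 with indomethacin, 61.5 with IL-1β and 60.9 with vehicle. Adamtsl5 had 51.8 with iloprost, 41 with indomethacin and 38 with IL-1β, all dim, and 26.8 with vehicle, which is under the floor. With indomethacin against IL-1β alone, Adamtsl4 was at -0.33 and Adamtsl5 at 0.26. Papln was at the floor throughout.

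The inhibitors stayed within 2-fold. Timp3 had signals of 439.4 with iloprost, 415.7 with indomethacin, 489.7 with IL-1β and 412.5 with vehicle, and its log2 ratios were 0.072 with iloprost, -0.089 with indomethacin and 0.022 with IL-1β. Timp1, which inhibits most matrix metalloproteinases, had a ratio of 0.75 with IL-1β and -0.093 with indomethacin. Of the 3 TIMPs above the floor, 0 passed 2-fold in any comparison, and Timp4 was at the floor.

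Among substrates, versican (Vcan), a proteoglycan cut by Adamts1, Adamts4, Adamts5 and Adamts9, had signals of 755.2 with iloprost, 295.6 with indomethacin, 561.3 with IL-1β and 301.0 with vehicle. It was low in the vehicle and indomethacin dishes and highest with iloprost. Its log2 ratios were 1.34 with iloprost, -0.78 with indomethacin and 0.67 with IL-1β. With iloprost it therefore stood above IL-1β alone, by 0.57, where Adamts1 stood below it. Of 8 genes above the floor on the list of proteoglycan and matrix genes, 0 passed 2-fold with IL-1β. With indomethacin 1 was at least 2-fold higher, the matrix Gla protein gene Mgp at 1.36. Mgp is listed as a matrix gene, and whether ADAMTS proteases cut its product was not tested. With iloprost 1 was higher, Vcan, and 1 lower, Mgp at -1.62. The medians of this list, Mgp included, were 0.084 with iloprost, 0.038 with indomethacin and 0.070 with IL-1β.

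Procollagen chains and their processing proteins, the substrates and partners of Adamts2, had medians of 0.0090 with iloprost, 0.069 with indomethacin and -0.10 with IL-1β. Of the genes with a ratio or a bound, 0 of 8, 0 of 8 and 0 of 7 passed 2-fold in these comparisons. Of genes for activation, anchoring and clearance, the convertase gene Furin had a ratio of 0.31 with IL-1β. Lrp1, the clearance receptor, stood at -0.072 with IL-1β and 0.42 with iloprost. Sdc4, a syndecan that binds Adamts5, stood at 0.36 with IL-1β and -0.28 with iloprost. In this group 1 of 8 passed 2-fold with iloprost, the syndecan Sdc1 at 1.16, and 0 with IL-1β or indomethacin.

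The matrix metalloproteinases, a related family of matrix-cutting enzymes, gave 2 of 7 at least 2-fold higher with IL-1β, the stromelysins Mmp3 at 1.80 and Mmp10 at a bound of at least 2.91. With indomethacin 0 of 7 passed 2-fold, and the median was 0.0028. Mmp3 was then at 0.0028 and the collagenase Mmp13 at 0.44, so neither shared the low ratios of Adamts1 and Adamts5. With iloprost 2 of 7 were at least 2-fold lower, Mmp10 at -2.14 and Mmp13 at -1.77, and 1 higher, Mmp19 at 1.57. Mmp9 fell just short of 2-fold, at -0.977. Its second probe set had signals of 509.1 with iloprost and 1123 with indomethacin. Of the 7, 5 lay below the median gene and 2 above, and their median was -0.55. Hyaluronan genes, which make and bind the polymer that holds aggrecan and versican, had medians of 1.36 with iloprost, -1.14 with indomethacin and 1.27 with IL-1β. In that group IL-1β gave 3 of 5 at least 2-fold higher, 4 of 5 were lower with indomethacin and 3 of 5 were higher with iloprost. The hyaluronan synthase Has2 was at 1.71 with iloprost, -1.32 with indomethacin and 0.96 with IL-1β. Adamts1 was at 0.61, -1.23 and 1.94 in that order.

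**Figure D4:**
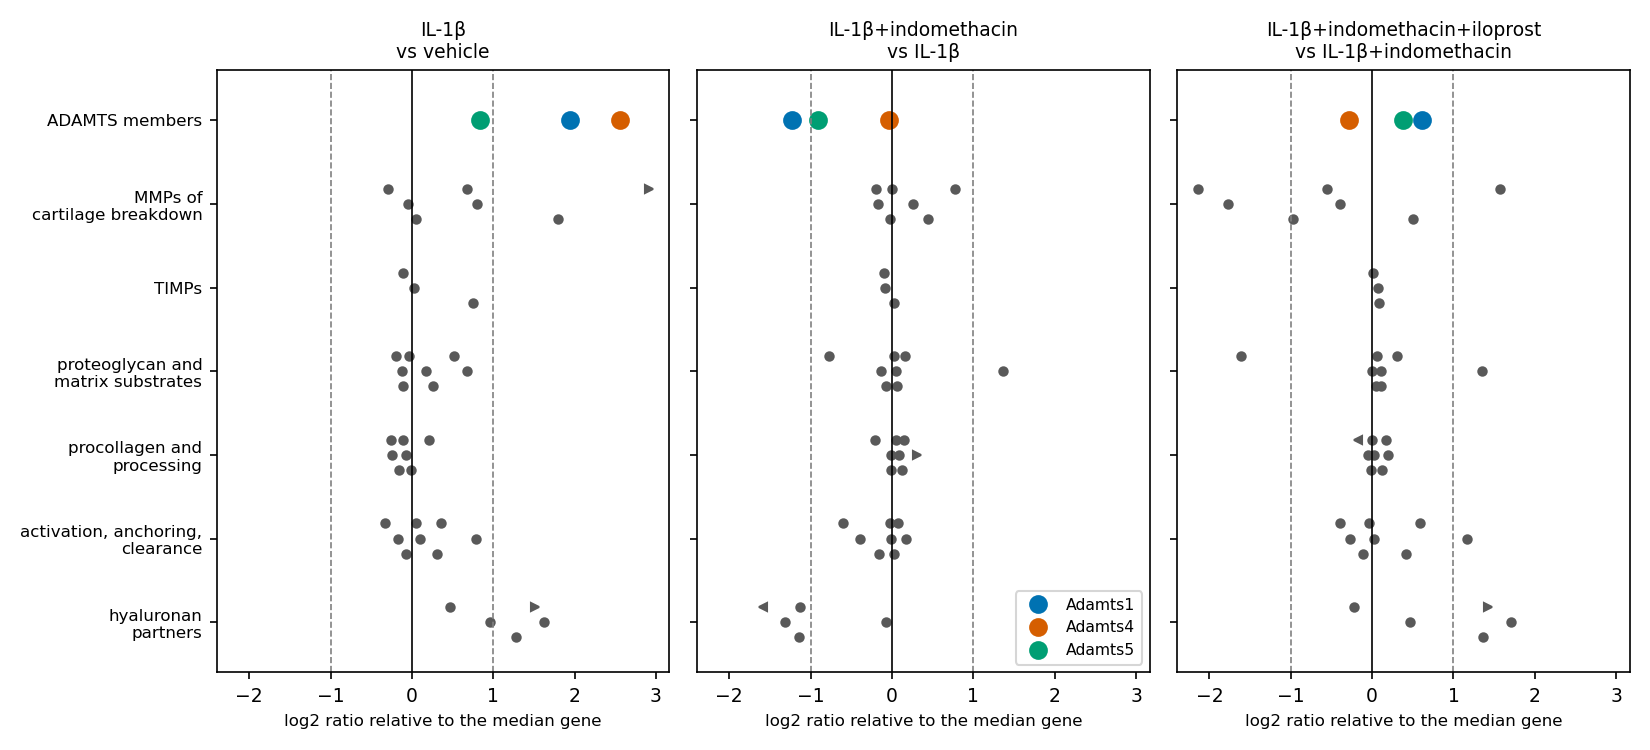
Log2 ratio relative to the median gene for the ADAMTS members (coloured) and for genes of related families (grey, triangles are bounds), with IL-1β, indomethacin and iloprost comparisons from left to right and 2-fold dashed. TIMPs and procollagen genes lie within 2-fold in all 3, while 4 of 5 hyaluronan genes lie beyond it with indomethacin.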

How the data were processed

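Per the labels, RNA was prepared for the chips by the manufacturer's usual protocol. Each deposited value is a linear intensity, 1 per probe set on each array, and is never negative. No source used here gives the software, background correction or scaling that the authors applied, and precision is limited by having 4 arrays.

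Of 22690 probe sets, the 20380 that the platform annotation gives 1 gene, controls left out, were used for 12393 genes. Signals under the floor of 37.6 were raised to it, and log2 was then taken. Each gene is represented by the probe set whose mean log2 signal is highest. A gene at the floor on 1 of a pair of arrays has a bound, and at the floor on both no ratio. Counts past 2-fold include bounds. SDs between probe sets are robust, from the median absolute deviation. With 1 array per group no test was possible. The calculation was tested on simulated data in which only genes much brighter than the floor were changed. It was not tested there for bounds or for changed genes as dim as the members were in vehicle. Every ADAMTS probe set is reported. Similar genes are the 5 nearest profiles of each member that ranged over at least 1 log2 unit. Members and gene lists were chosen with earlier results of these data known. Of 141 list entries, 123 had a probe set. Promoter windows are RefSeq's for GRCm38.p6. The alternatives were the deposited scale, quantile normalization, a floor at the 65th percentile, log2(signal + 16) and the median over a gene's probe sets. Python 3.11.15, pandas 2.3.3 and numpy 2.4.6 were used.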

Additional observations from a re-analysis of the deposited data

How the results depend on the processing

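With 1 array per treatment, neither the spread between dishes nor the effect of leaving out a sample could be had. Of 90 member ratios recomputed under 5 alternatives, 83 moved by less than the SD between probe sets of 1 gene, 2 crossed 2-fold and 2 changed sign. Both crossings were Adamts5 on the scale as deposited, at 1.07 with IL-1β and -1.06 with indomethacin, and both sign changes were Adamts5 with IL-1β and indomethacin against vehicle. Some of the 90 could hardly move. The brighter probe sets lie above the higher floor of 87 on every array, and Adamts1 has 1 probe set. There, the higher floor and the median over probe sets could shift only the median gene. With IL-1β as deposited, Adamts1 was 2.17 and Adamts4 2.78. By the median over probe sets, Adamts4 against vehicle was 1.92 with iloprost, 2.05 with indomethacin and 2.14 with IL-1β alone, and Adamts5 with indomethacin was 0.16.

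Of 60 counts of all genes past 2-fold under the alternatives, 44 stayed within 1.5 times of the main count. Only those that moved further are given here. With IL-1β against vehicle, 120 were higher and 39 lower. As deposited, these were 195 and 11. Raising the floor to the 65th percentile gave 77 and 20, and log2(signal + 16) without a floor gave 25 lower. With indomethacin against IL-1β, 17 were higher and 46 lower. As deposited 9 were higher, with the higher floor 10 higher and 30 lower, and without a floor 11 higher. Between the iloprost and indomethacin dishes, 138 were higher, and 86 with the higher floor. With iloprost against IL-1β, 67 were higher, 44 as deposited and 33 with the higher floor. With indomethacin against vehicle, 22 were lower, 12 as deposited, 3 with the higher floor and 13 without a floor. With iloprost against vehicle, 190 were higher, and 118 with the higher floor. The higher floor turns more genes into bounds, and the deposited scale keeps the brightness of each array.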
